A study of Mus musculus with 6 samples.

Results

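AMPA receptors are the ligand-gated ion channels that carry most fast excitatory transmission in the brain, and 8 of their genes were followed here across 6 hippocampal RNA libraries. They are the 4 pore-forming subunit genes Gria1, Gria2, Gria3 and Gria4, which encode GluA1 to GluA4, and 4 genes of auxiliary proteins, Cacng2, Cacng3, Cacng8 and Cnih2. The 8 genes were taken by symbol from a table of 20323 genes with values, and all 8 were present. They were selected on their normalized counts in the Nrg-1β1 and vehicle libraries, which were already known, so the differences between the groups are a description. The members' place in the fit over all genes is given beside the share of all genes called. Their place under other processing choices is given as a description only. Tests of the members themselves are limited to the order of their levels within libraries.

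Each library was taken to come from a different Nestin-CreERT2;Rosa26-mGFP mouse. In these mice tamoxifen-inducible Cre under the Nestin promoter switches on membrane GFP in neural progenitor cells and in the cells they give rise to. GFP-positive hippocampal cells were collected on magnetic columns. All 6 mice had been fed cuprizone, a copper chelator that demyelinates the brain, for 10 weeks and then allowed to recover for 4 weeks. During recovery 3 mice received vehicle, 0.1% bovine serum albumin in saline, and 3 received neuregulin 1 beta 1 peptide (Nrg-1β1), a ligand of the ErbB receptors, at 60 µg per kg per day by the series text (the sample labels print grams). Neither the animals' age nor a group without cuprizone is in the labels.

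A functional AMPA receptor is an assembly of GluA subunits, and its properties depend on which subunits are present. GluA2 normally carries an edited residue in the pore that blocks calcium entry, so receptors without it admit calcium. Auxiliary proteins ride along with the pore. The TARPs, encoded by Cacng2, Cacng3 and Cacng8, take receptors to the surface and anchor them at synapses, and the cornichon homologue encoded by Cnih2 escorts them out of the endoplasmic reticulum and slows their closing. In the hippocampus GluA1, GluA2, TARP γ-8 and cornichon-2 are known as main components of AMPA receptors in excitatory neurons, while AMPA receptor genes are also transcribed in oligodendrocyte progenitors and some astroglia.

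RefSeq (GRCm38.p6) lists a start-site window, 250 bases before to 50 bases after the annotated start, for 6 of the 8 genes. Those of Gria2, Cnih2 and Cacng8 are printed because these genes illustrate the contrasts described below: Cnih2 had the highest level per length, Gria2 was the reference for the subunit ratios, and Cacng8 kept a near-constant ratio to Gria1. The windows are Gria2 at chr3:80802786-80803085 (minus strand), Cnih2 at chr19:5098472-5098771 (minus strand) and Cacng8 at chr7:3393792-3394091 (plus strand), all read 5′ to 3′. Capitals mark the letters of a GC box (GGGCGG) or of an NRF1 half-site (TGCGCA) on either strand.
Gria2: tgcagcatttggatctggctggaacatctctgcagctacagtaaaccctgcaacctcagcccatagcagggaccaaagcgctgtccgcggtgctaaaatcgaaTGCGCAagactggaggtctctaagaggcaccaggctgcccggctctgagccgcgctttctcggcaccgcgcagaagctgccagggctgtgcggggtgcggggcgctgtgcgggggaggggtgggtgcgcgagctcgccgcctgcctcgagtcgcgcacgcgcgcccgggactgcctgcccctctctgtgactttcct
Cnih2: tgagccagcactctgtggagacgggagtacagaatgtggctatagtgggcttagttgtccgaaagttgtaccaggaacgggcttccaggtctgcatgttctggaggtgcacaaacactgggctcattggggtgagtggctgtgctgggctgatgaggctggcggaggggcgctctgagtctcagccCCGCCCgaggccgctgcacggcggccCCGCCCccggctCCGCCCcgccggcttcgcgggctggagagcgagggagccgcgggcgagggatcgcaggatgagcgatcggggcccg
Cacng8: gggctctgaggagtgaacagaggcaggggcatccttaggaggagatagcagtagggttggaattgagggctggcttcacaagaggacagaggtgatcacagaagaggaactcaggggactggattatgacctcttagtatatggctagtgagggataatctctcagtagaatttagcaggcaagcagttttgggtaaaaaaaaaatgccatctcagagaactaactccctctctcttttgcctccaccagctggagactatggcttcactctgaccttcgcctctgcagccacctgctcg
The Cnih2 window held 3 GC boxes and 25 CpG dinucleotides, and the Gria2 window 1 NRF1 half-site, no GC box and 26 CpG dinucleotides. By contrast, the Cacng8 window held only 2 CpG dinucleotides, and its share of G and C was below the 65.7% of Gria2 and the 67.3% of Cnih2. Over all 32851 start-site windows of 300 bases, 35.7% held a GC box, 7.76% an NRF1 half-site and 20.8% a CRE half-site (TGACG), which occurred in none of the 6 member windows. The median window held 7 CpG dinucleotides. In the GENCODE annotation Cacng8 starts at chr7:3390683, upstream of the printed window, which therefore lies inside the gene and need not be a promoter. Its low CpG count is thus not read as a trait of the Cacng8 promoter. These letters are a description of the windows and not of factor binding.

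Depth differed widely between libraries. Vehicle libraries 1 and 3 held 72953034 and 47076006 recovered reads, against 567073 to 1327003 in the other 4, so the Nrg-1β1 group contained shallow libraries only. Reads of 4 Y-linked genes numbered 143, 2 and 3763 in vehicle libraries 1 to 3 and 57, 49 and 34 in Nrg-1β1 libraries 1 to 3, while Xist, transcribed from the inactive X chromosome, had 3255, 216 and 1045 reads and then 2, 3 and 1. Vehicle libraries 1 and 2 thus held Xist with few Y-linked reads for their depth, and vehicle library 3 held both. The 3 Nrg-1β1 libraries held Y-linked reads and almost no Xist. Sex as read from these genes therefore differed between the groups and cannot be told apart from treatment. Its part in the results was not tested, nor was whether each library came from 1 mouse. Values without vehicle libraries 1 and 2 and without the deep libraries are given with the comparison. The labelled cell type is neural progenitor cells. Among 9 stem and progenitor markers Mki67 and Top2a had no read in at least 1 library, and among 6 neuroblast markers Eomes, Neurod1 and Neurod4 had none in at least 1. These gaps fell in shallow libraries only. The deep vehicle libraries 1 and 3 held 90 and 80 reads of Mki67, 105 and 90 of Top2a and 111 and 61 of Neurod1. All markers of mature oligodendrocytes, astrocytes, excitatory neurons and microglia had reads in every library, so the sorted material was mixed. In such bulk libraries fewer cells of a type and less RNA per cell cannot be told apart.

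Among the pore-forming subunits, Gria1 stood apart between the groups and the others did not. Gria1, whose product GluA1 is the subunit most tied to activity-dependent insertion at synapses, had normalized counts of 422, 654 and 512 in vehicle libraries 1 to 3. In Nrg-1β1 libraries 1 to 3 it had 1958, 1394 and 1042, so the groups did not overlap. On the log2(normalized count + 4) scale of the deposited table the means were 9.04 ± 0.31 and 10.47 ± 0.45 (SD, n = 3 each), a difference of 1.44 ± 0.31 (SE), and the mean normalized count was 2.77 times higher with Nrg-1β1. The counts behind these values were 6978, 212 and 8468 reads in vehicle and 379, 273 and 343 reads in Nrg-1β1. For the highest vehicle library, 2, the 95% exact Poisson interval of the normalized count was 569 to 749, and for the lowest Nrg-1β1 library, 3, it was 935 to 1159. These intervals cover counting error within a library and not the spread between animals.

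Gria2, which encodes the subunit that sets calcium permeability, did not share this shift. Its normalized counts were 168, 176 and 135 in vehicle and 139, 143 and 69.9 in Nrg-1β1. Nrg-1β1 library 3 was the lowest, and the other 2 Nrg-1β1 libraries lay within the vehicle range. The log2 difference was -0.49 ± 0.33 (SE), with only 27, 28 and 23 reads in the Nrg-1β1 libraries.

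**Figure D1:**
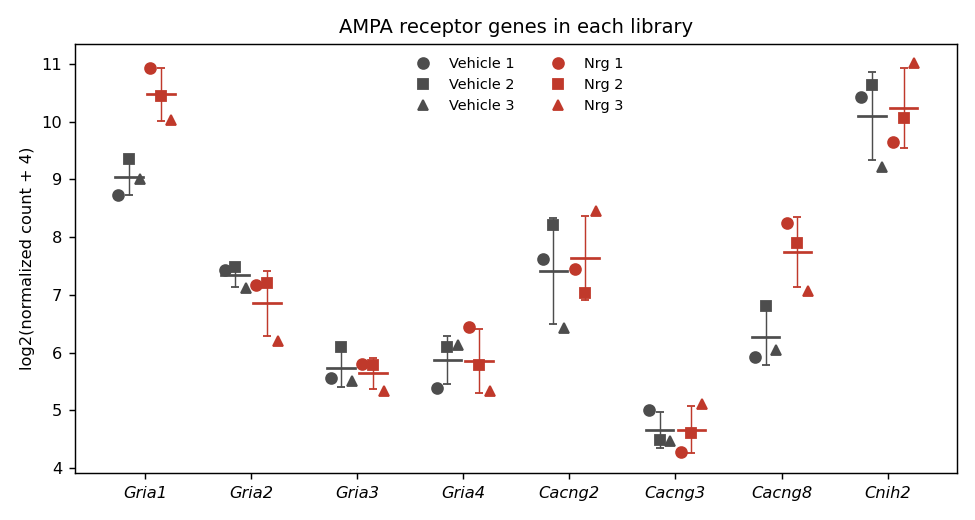
Deposited log2(normalized count + 4) of the 8 AMPA receptor genes in each library, with vehicle in grey, Nrg-1β1 in red, bars at the group mean and error bars of 1 SD (n = 3 each). The groups are separate for Gria1 and Cacng8 and overlap for the other 6 genes.

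Gria3 and Gria4 were the scarcer subunit genes, and neither separated the groups. Gria3, an X-linked gene whose product usually pairs with GluA2, had normalized counts of 43.5, 64.8 and 41.5 in vehicle and 51.7, 51.1 and 36.5 in Nrg-1β1. Its log2 difference was -0.09 ± 0.38 (SE). Gria4, best known from interneurons and young circuits, had 37.9, 64.8 and 65.8 in vehicle and 82.7, 51.1 and 36.5 in Nrg-1β1, a difference of -0.02 ± 0.39 (SE). Both genes rested on 10 to 16 reads in each Nrg-1β1 library, where the 10 Gria3 reads of Nrg-1β1 library 2 give a 95% counting interval of 24.5 to 93.9 normalized counts.

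The makeup of the subunit transcripts differed between the groups. Reads of Gria1 per read of Gria2, a ratio within a library that no scaling between libraries can alter, were 2.51, 3.72 and 3.81 in vehicle and 14.0, 9.75 and 14.9 in Nrg-1β1. Every Nrg-1β1 library lay above every vehicle library. Per kb of transcript, Gria1 made up 70.7% to 74.0% of the 4 subunit genes in vehicle and 88.4% to 90.2% in Nrg-1β1. Gria2 made up 10.3% to 15.0% in vehicle and 3.23% to 4.85% in Nrg-1β1. The lower share was not particular to Gria2. Gria3 made up 6.38% to 7.83% in vehicle and 2.54% to 3.46% in Nrg-1β1, and Gria4 6.47% to 9.64% and 3.22% to 3.88%. As parts of 1 total, the shares of the other subunit genes are lower where that of Gria1 is higher. These shares depend on the length used. The longest coding transcript of Gria2 has 10371 bases, against 5192 to 5546 for the other 3, while coding lengths are 2649 to 2721 bases. On coding length Gria2 takes a larger share. Mean normalized counts per kb of coding sequence over all libraries were 366 for Gria1, 52.3 for Gria2, 20.9 for Gria4 and 18.1 for Gria3. Summed without Gria1, the other 3 subunit genes came to 249, 306 and 242 normalized counts in vehicle and 274, 245 and 143 in Nrg-1β1, ranges that overlap. Reads of Gria3 per read of Gria2 ranged from 0.259 to 0.368 in vehicle and from 0.357 to 0.522 in Nrg-1β1, and also overlapped.

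**Figure D2:**
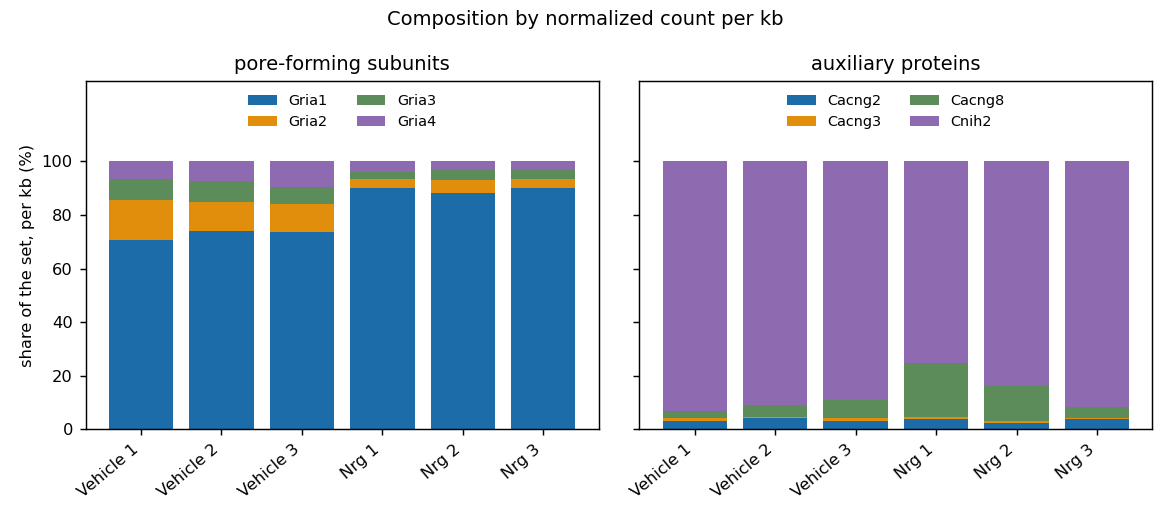
Share of each gene in the summed normalized count per kb of the 4 pore-forming subunits (left) and of the 4 auxiliary genes (right), in percent, for each library. Gria1 takes 70.7% to 74.0% of the subunits in vehicle and 88.4% to 90.2% in Nrg-1β1, while Cnih2 takes 75.4% to 93.1% of the auxiliary genes. Lengths are those of the longest coding transcript, and on coding length the share of Gria2 is larger.

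Of the auxiliary genes, Cacng8 differed between the groups. It encodes TARP γ-8, the TARP most enriched in the hippocampus. Its normalized counts were 56.9, 108 and 62.5 in vehicle and 299.6, 235 and 131 in Nrg-1β1, so the groups did not overlap. The log2 means were 6.26 ± 0.48 and 7.74 ± 0.60 (SD, n = 3 each), a difference of 1.48 ± 0.35 (SE). Vehicle library 2 was the highest of its group and Nrg-1β1 library 3 the lowest of its own, and their counting intervals overlapped (75.3 to 150 and 94.6 to 176). As CPM of the recovered reads, in place of the authors' scaling, Cacng8 was 12.9 to 32.5 in vehicle and 32.4 to 102 in Nrg-1β1, which just overlap. Gria1 on the same measure stayed apart, at 95.7 to 197 and 258 to 668.

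Cacng8 kept a nearly fixed proportion to Gria1. There were 0.135, 0.165 and 0.122 reads of Cacng8 per read of Gria1 in vehicle and 0.153, 0.168 and 0.125 in Nrg-1β1. The groups overlapped fully on this ratio, although the normalized count of Gria1 itself spanned 4.63-fold over the 6 libraries and that of Cacng8 5.26-fold.

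Cacng2 and Cnih2 varied strongly, but not by group. Cacng2 encodes stargazin, the founding TARP, and had normalized counts of 193, 293 and 81.6 in vehicle and 170, 128 and 346 in Nrg-1β1. Cnih2 had 1371, 1581 and 593 in vehicle and 801, 1073 and 2057 in Nrg-1β1. Both genes were lowest in vehicle library 3 within their group and highest of all in Nrg-1β1 library 3, and the groups overlapped. Their log2 differences were 0.23 ± 0.42 and 0.15 ± 0.39 (SE). Reads of Cnih2 per read of Cacng2 stayed between 4.70 and 8.40 in all 6 libraries, while the genes themselves spanned 3.47-fold and 4.25-fold. Cnih2 shares 14 exon bases with Yif1a on the opposite strand and Cacng2 323 with A730060N03Rik, and reads in those bases cannot be assigned without a strand setting. Yif1a itself reached at most 34.6 normalized counts.

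Cacng3, which encodes TARP γ-3, was the scarcest member. It had 28.3, 18.5 and 18.1 normalized counts in vehicle and 15.5, 20.4 and 30.4 in Nrg-1β1, and the Nrg-1β1 values rest on 3, 4 and 10 reads. The groups overlapped, with a log2 difference of 0.01 ± 0.47 (SE).

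**Figure D3:**
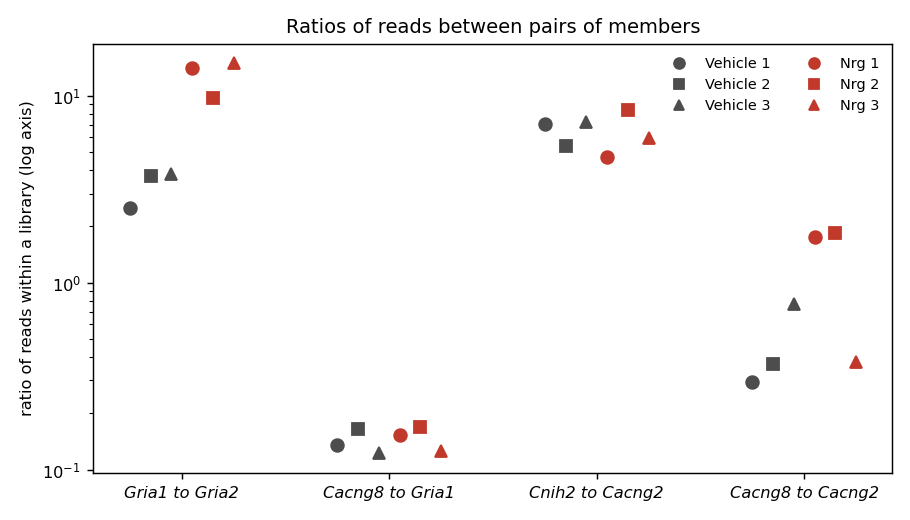
Ratio of reads between pairs of members within each library, on a log axis, with vehicle in grey and Nrg-1β1 in red. Gria1 to Gria2 separates the groups (2.51 to 3.81 against 9.75 to 14.9), Cacng8 to Gria1 stays between 0.122 and 0.168, and Cacng8 to Cacng2 and Cnih2 to Cacng2 overlap between groups.

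In the comparison of Nrg-1β1 with vehicle fitted over all 20323 genes (limma, Benjamini-Hochberg), 1 of the 8 members, Gria1, was called at an adjusted p of 0.05, where 1.06% of all genes were called. The groups did not overlap, with Nrg-1β1 higher, for 2 of the 8, where this held for 7.37% of all genes (17.7% in either direction). As the members were picked with this contrast in view, nothing is read from these counts. The median log2 difference was 0.08 over the 8 members and 0.03 over all genes. Gria1 was no longer called in that fit when any 1 of the 6 libraries was left out, although its difference stayed between 1.20 and 1.66. No member was called when genes averaging under 50 normalized counts were dropped, after quantile normalization, with limma-voom, with read depth class as a term or after thinning. Against vehicle library 2 alone, the only vehicle library of similar depth, the differences of Gria1 and Cacng8 were 1.11 ± 0.45 and 0.93 ± 0.58 (SE) on the log2 scale. Without vehicle libraries 1 and 2 they were 1.46 and 1.69.

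**Figure D4:**
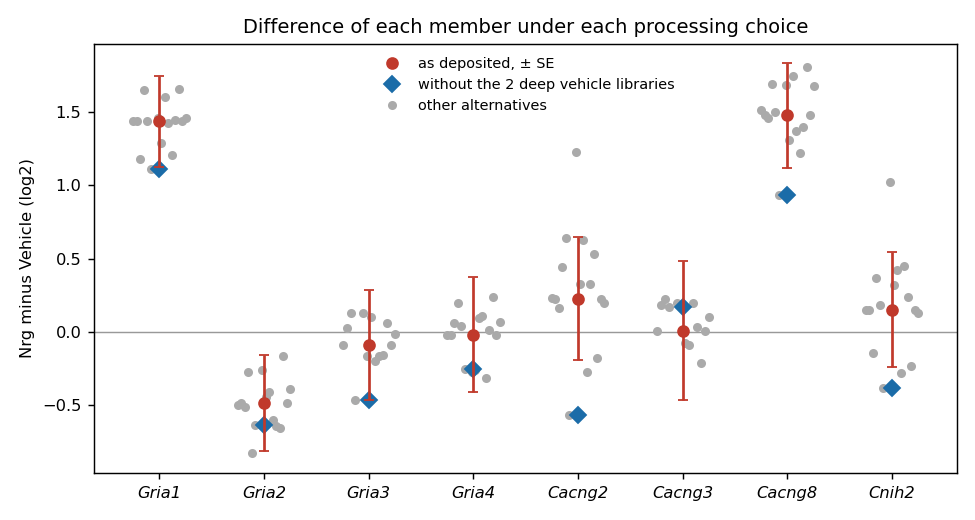
Log2 difference, Nrg-1β1 minus vehicle, of each member in the fit to the deposited values (red, error bars of 1 SE), without the 2 deep vehicle libraries (blue) and under each other processing choice (grey). Gria1 lies between 1.11 and 1.66 and Cacng8 between 0.93 and 1.81 under every choice shown, Gria2 between -0.83 and -0.16, and the other 5 genes fall on both sides of 0.

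Other cell type markers moved between the same libraries. Over all genes 0.438% were called higher and 0.625% lower, while 7.37% were higher and 10.4% lower without overlap. All 8 astrocyte markers had a positive difference, 5 of them without overlap, and 0 were called. Their summed normalized count was 25825 to 37961 in vehicle and 47251 to 47712 in Nrg-1β1. Of the 9 stem and progenitor markers 7 had a positive difference and 1, Sox1, was called, with sums of 1660 to 2061 and 2867 to 2984. For 2 of them Nrg-1β1 was higher without overlap. Nes, the Nestin gene, was lower without overlap, at 71.0 to 234 in vehicle and 27.3 to 46.0 in Nrg-1β1, a difference of -1.65. Of the 6 neuroblast markers 2 had a positive difference and 4 a negative one, 1 was lower without overlap and 0 were called. Their sums were 72.7 to 116 in vehicle and 103, 250 and 100 in Nrg-1β1 libraries 1 to 3. The 5 dentate granule neuron markers, 2 of them with a positive difference and 0 called, summed to 95.7 to 111 and 72.9 to 123. The 10 excitatory neuron markers all had a positive difference, 0 were called, and their sums overlapped, at 13804 to 24008 and 17429 to 26304. Most of these sums was Camk2a, at 9808 to 17473 in vehicle and 9572 to 18981 in Nrg-1β1. For 3 of the 10 Nrg-1β1 was higher without overlap. Among these was Slc17a7, at 782 to 957 in vehicle and 1592 to 2911 in Nrg-1β1. The 7 inhibitory neuron markers, 5 of them with a positive difference, 2 higher without overlap and 0 called, summed to 202 to 329 and 325 to 346. Of the 7 oligodendrocyte progenitor markers 4 had a positive difference, 3 were higher without overlap and 1, C1ql1, was called, with sums of 1008 to 2025 and 1975 to 3399. Microglial and endothelial markers went the other way, with 4 of 6 and 5 of 5 called lower. The groups did not overlap for any of these 6 and 5 markers. The 7 oligodendrocyte markers, 1 of them with a positive difference, 2 lower without overlap and 0 called, summed to 92070 to 189369 and 107477 to 139784. The microglial and endothelial sums were 5584 to 8792 and 417 to 2045 in vehicle, and 2066 to 2592 and 67.2 to 103 in Nrg-1β1. Of the 4 choroid plexus markers 3 were called lower and the groups did not overlap for any, with sums of 1402 to 4635 in vehicle and 76.6 to 167 in Nrg-1β1. Among them Ttr, the transthyretin gene, had the lowest difference, -4.85 on the log2 scale, and Folr1 and Kcnj13 had no read in at least 1 Nrg-1β1 library. The part of these markers in the Gria1 and Cacng8 values was not tested.

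The members spanned a wide range of levels. Per kb of the longest coding transcript in GENCODE vM21, Cnih2 was highest in each of the 6 libraries, with a mean normalized count per kb of 928 ± 399.6 (SD, n = 6). Gria1 came next at 179.8 ± 107, then Cacng8 at 78.4 ± 51.7 and Cacng2 at 36.7 ± 18.2. Gria2 followed at 13.4 ± 3.6, Gria4 at 10.4 ± 3.3, Gria3 at 9.28 ± 1.93 and Cacng3 at 7.88 ± 2.17. All 28 pairs were compared within libraries with an exact two-sided sign-flip test, whose smallest possible p over 6 libraries is 0.0312. Of these, 21 pairs passed after Benjamini-Hochberg adjustment (adjusted p = 0.0417, exact permutation). Gria1 exceeded Gria2 in 6 of 6 libraries, and Cacng8 lay below Gria1 in 6 of 6, by a mean log2 ratio of 1.25 ± 0.20 (SD, n = 6). Per kb of transcript, no pair among Gria2, Gria3, Gria4 and Cacng3 passed (adjusted p = 0.0795 to 0.5, exact permutation). Gria2 was above Gria3 in 5 of 6 libraries, by a mean log2 ratio of 0.49 ± 0.34 (SD). Cacng8 and Cacng2 did not pass either (Cacng8 higher in 5 of 6 libraries, adjusted p = 0.146, exact permutation). With so few libraries, not passing does not show equal levels. The means pool both groups: per kb, Cacng8 was 30.0, 57.0 and 32.9 in vehicle beside Cacng2 at 35.0, 53.2 and 14.8, and it was 158, 124 and 68.9 in Nrg-1β1 beside 30.9, 23.2 and 62.9. Per kb of coding sequence instead, Cacng8 and Cacng2 changed places in the mean order and Cacng3 moved ahead of Gria4 and Gria3. On that length Gria2 exceeded both Gria3 and Gria4 in 6 of 6 libraries (adjusted p = 0.0417, exact permutation). Gria1 against Cacng2 (4 of 6, adjusted p = 0.245) and Cacng8 against Gria2 (4 of 6, adjusted p = 0.219) no longer passed the exact permutation test.

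**Figure D5:**
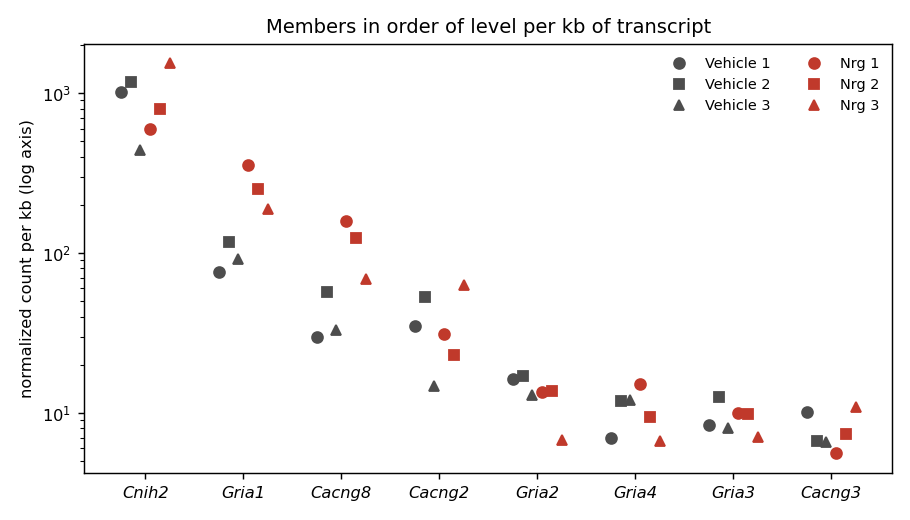
Normalized count per kb of the longest coding transcript, on a log axis, for each member and library, ordered by mean level. Cnih2 (mean 928) and Gria1 (mean 179.8) lead, and Gria2, Gria4, Gria3 and Cacng3 lie together at means of 7.88 to 13.4.

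Other genes that build, carry or anchor AMPA receptors were taken from a list of 53, all with values. In the same limma fit 2 rose and 0 fell at an adjusted p of 0.05, against 0.438% and 0.625% of all genes, while 4 were higher and 2 lower at an unadjusted p of 0.05, where 2644 of the 20323 genes lay. The 6 of 53 are thus no larger a share than that of all genes. The list median was 0.07 on the log2 scale, beside 0.03 for all genes. The members and this list share the vehicle and Nrg-1β1 libraries, so they are not independent of each other.

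Syndig1l, a gene of the SynDIG family of AMPA receptor associated membrane proteins, rose. Its normalized counts were 118, 213 and 86.9 in vehicle and 692, 455 and 316 in Nrg-1β1, without overlap. The log2 difference was 1.80 ± 0.35 (SE, adjusted p = 0.0184, limma), higher in 3 of 3 Nrg-1β1 libraries. The call was lost when any 1 library was left out, with differences of 1.51 to 2.15. Without the 2 deep vehicle libraries the difference was 1.11.

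Shisa9, which encodes the auxiliary subunit CKAMP44, also rose. It had 62.2, 89.5 and 65.1 normalized counts in vehicle and 207, 184 and 158 in Nrg-1β1, again without overlap. The difference was 1.30 ± 0.31 (SE, adjusted p = 0.0467, limma). This call too was lost when any 1 library was left out, at differences of 1.21 to 1.46. Without the 2 deep vehicle libraries the difference was 0.99.

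Next by p came genes that did not pass. Arc, an immediate early gene whose product removes AMPA receptors from the surface, had 815, 151 and 385 normalized counts in vehicle and 165, 30.6 and 103 in Nrg-1β1. The groups overlapped through vehicle library 2, and the difference was -2.10 ± 0.53 (SE, adjusted p = 0.0582, limma). It was -0.86 without the 2 deep vehicle libraries. Rab11a, which directs recycling endosomes, differed by -0.92 ± 0.30 (SE, adjusted p = 0.16, limma), with 155 to 185 normalized counts in vehicle and 67.2 to 107 in Nrg-1β1. The kinase gene Prkca differed by 0.89, the TARP gene Cacng7 by 0.84 and the secreted noelin gene Olfm1 by 0.76. Cnih1, the broadly expressed relative of Cnih2, differed by -0.72. Dlg4, which encodes PSD-95, the scaffold that TARPs bind, had 1517 to 1950 normalized counts in vehicle and 1937 to 2605 in Nrg-1β1, a difference of 0.37 ± 0.31 (SE, adjusted p = 0.676, limma).

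Across the 6 libraries, the 3 genes whose deposited values most resembled Gria1 among 1305 named genes with at least 50 reads in every library were Insig1 (Pearson r = 0.996), Tpcn1 (0.995) and Scd2 (0.992). For Gria2 they were Serinc1 (0.986), Actr2 (0.979) and Pnpla8 (0.958), among 1306. Insig1 and Scd2 act in sterol and fatty acid metabolism and Tpcn1 encodes an endolysosomal channel. The 6 points share their group and depth, so the r values rank likeness only.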

How the data were processed

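RNA was sequenced from GFP-positive hippocampal cells of 6 mice, 3 per group by their titles, each taken to be a separate animal. Trimmomatic and Bowtie2 appear in the submitters' processing notes. Not given in the sources used here: their versions, the build, the counter, the strand setting, the scaling or any gene filter. The authors deposited log2 values for 27102 genes, of which 6779 were blank and 20323 were analysed. The lowest value is the log2 of 4, and 100% of unlogged values minus 4 were whole multiples of 1 step per library within 0.02 of a read. On this basis each deposited log2 value was taken to be that of a normalized count plus 4, and reads were recovered from the steps. This reading comes from the values. A read was worth 0.0605 to 5.17 normalized counts, and 6480 to 16906 genes had at least 10 reads.

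Groups were compared with limma 3.58.1 (R 4.3.3) with an intensity trend over all genes, group as the only term and Benjamini-Hochberg adjustment at 0.05, tested on simulated counts. Count models were not used on the log2 unit. Counting intervals are 95% exact Poisson and cover counting error only, since reads carry no molecular identifiers. Lengths and exon overlaps came from GENCODE vM21 (GRCm38), used for these alone. The named genes were the 8 members, the listed pathway genes past the threshold, the 6 others with the smallest p, Arc, Dlg4, and 3 genes most like Gria1 and Gria2. The members and lists were chosen with earlier results of these data known.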

Additional observations from a re-analysis of the deposited data

How the results depend on the processing

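The count of genes past the threshold, 216 in the limma fit to the deposited values, was 129 with an offset of 1, 49 when only the 6731 genes averaging 50 or more normalized counts were fitted, 65 after quantile normalization and 499 when each library was centred on its median, where the median difference over all genes was 0.25. The split of higher to lower calls was 89 to 127 as deposited, 12 to 53 after quantile normalization and 335 to 164 after centring. It was 1 with limma-voom on the recovered reads. It was 0 with read depth class as a term, without the 2 deep vehicle libraries, without vehicle libraries 1 and 2, and as the median of 11 draws thinned to 567073 reads, where 1729, 1589, 2059 and 1864 genes lay under an unadjusted p of 0.05. It ranged from 0 to 56 when each library was left out, with 1429 to 3385 genes under an unadjusted p of 0.05. The pathway list, with 2 called of 53, had 1 called with an offset of 1 and 0 under the other choices named, each library left out included, except centring on medians, where Arc was called lower as well. The cause was not tested. Of the 28 member pairs, 21 passed per kb of transcript and 21 per kb of coding sequence, which are not the same pairs: Gria1 with Cacng2 and Gria2 with Cacng8 passed on the first length only, and Gria2 with Gria3 and with Gria4 on the second only. The count was 0 in the 4 shallow libraries, where the smallest possible p is 0.125 (exact permutation).

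With the replicate number as a replicate block, 627 genes passed, 3 of the pathway list, and Gria1 and Cacng8 among the members. No likeness by replicate number was seen. Deviations of same-numbered libraries from their group means correlated at -0.27, -0.07 and -0.30 over 6731 genes, and no library was most like its own number. Deviations from a mean of 3 libraries constrain one another, so these values cannot settle whether the numbers mark pairs.

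Gria1 and Cacng8 had a positive difference under all 17 settings, the deposited scale included, and Gria2 a negative one. These are not 17 separate checks. The filter on mean normalized count and the replicate block return the deposited-scale difference by construction, 1.44 for Gria1 and 1.48 for Cacng8. Read depth class as a term likewise returns the difference without the deep vehicle libraries, 1.11 and 0.93. The members were also selected on these values, so the shared sign is a description. Gria1 was also called with an offset of 1, where 129 of all 20323 genes were called. Both Gria1 and Cacng8 were called after centring, where 499 were. As the members were selected on these values, nothing is read from these calls. Apart from these and the replicate block, no alternative called a member. Gria3 moved to -0.46 and Cacng8 to 0.93 without the deep vehicle libraries, and Cacng2 and Cnih2 to 1.23 and 1.02 without vehicle libraries 1 and 2. Leaving out vehicle libraries this way rests on 1 vehicle library, assumed to vary like the Nrg-1β1 group. Gria3, Gria4 and Cacng3 had 17 to 38 reads over the Nrg-1β1 group, so counting error is large there.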
